A study of Mus musculus with 3 samples.

Results

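The 10 genes described here are imprinted and control growth. They were followed in bone marrow of vehicle-treated mice, chosen by symbol: H19, Igf2, Dlk1, Meg3, Cdkn1c, Peg3, Mest, Grb10, Igf2r and Plagl1. All 10 had an entry among the 23282 entries of the files, and only 4 of them held at least 30 reads over the 3 libraries. The series set sterile water, the vehicle, against Asari Radix et Rhizoma, a herbal root and rhizome. The only group described is the vehicle group of 3 libraries, from male wild type C57BL/6 mice of 6 weeks that were gavaged for 28 days and harvested on day 29, with red blood cells lysed. The herb arm was not analysed here, and nothing below compares treatments. Whether each library is a mouse of its own is not stated in the labels, so the spread may be technical. P-values set that spread against counting noise only.

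Imprinted genes are transcribed from the copy inherited from one parent, according to DNA methylation laid down in the germline. Many act on fetal and postnatal growth: paternally expressed genes such as Igf2, Dlk1, Mest, Peg3 and Plagl1, and maternally expressed genes such as H19, Meg3, Cdkn1c, Igf2r and, in most tissues, Grb10. Several of them are highly expressed before birth and fall after it, and in marrow they are known mainly from stem cells and stroma. In an inbred strain the parental copies carry the same sequence, so the files show summed levels and say nothing of imprinting itself.

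The libraries were primed at the poly(A) tail and held 9168435, 8104828 and 9137125 reads in replicates 1, 2 and 3. Levels are given as reads per 1000000 reads of the library (CPM). Since such a library gives about 1 fragment per transcript, levels of different genes were compared without a length correction. Where a gene had 0 reads, a fixed floor of 3 reads was used. This floor is 0.327, 0.370 and 0.328 CPM in the 3 libraries and 0.114 CPM over all. It bears on the level only if reads of the gene could be counted. Intervals and limits cover counting error only. Marrow markers were present in every library, with summed neutrophil markers (12 of 12 with reads, led by S100a9 and S100a8) at 68835 to 91314 CPM and erythroid markers (11 of 11, led by Hba-a1 and Hbb-bs) at 75561 to 112827 CPM. In bulk samples, fewer cells of a type and less RNA per cell cannot be told apart.

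Several members also host microRNAs, whose mature forms these poly(A)-primed libraries do not measure. Those of H19, which had no reads, and of Mest, whose entry held the most reads of the members, are shown to name the microRNAs at these loci. Mir675 (miR-675-5p at chr7:142577112-142577133 and miR-675-3p at chr7:142577078-142577099, minus strand) lies in an exon of H19. Mir335 (miR-335-5p at chr6:30741314-30741336 and miR-335-3p at chr6:30741354-30741375, plus strand) lies in an intron of Mest. Capitals mark the seed, bases 2 to 8, and the 4 mature forms have different seeds. The sequences are RefSeq's for GRCm38.p6, written 5′ to 3′.
mmu-miR-675-5p: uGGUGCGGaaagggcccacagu
mmu-miR-675-3p: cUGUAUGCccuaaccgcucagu
mmu-miR-335-5p: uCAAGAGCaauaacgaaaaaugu
mmu-miR-335-3p: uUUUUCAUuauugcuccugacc

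Promoter sequence is shown for Mest and Plagl1, the paternally expressed members with a match to the motif searched for below. Windows of Igf2, Dlk1 and Peg3, also paternally expressed, held no match. Among the members the Mest entry held the most reads and the Plagl1 entry few. ZFP57, a zinc finger protein that protects methylated imprints, is known to bind the methylated motif TGCCGC. That motif was searched on both strands, as TGCCGC and GCGGCA, in the 250 bases before each RefSeq start. Of 15 windows of 8 members, 4 held it, from Mest, Meg3 and Plagl1, and 2 of the Mest windows overlap almost fully. Over all 32851 windows the share was 8.68%. H19 and Cdkn1c have no entry in the promoter table. The Mest window shown (chr6:30737800-30738049, plus strand) has 14 CpG dinucleotides and 2 matches. The Plagl1 window (chr10:13090582-13090831, plus strand) has 19 CpG dinucleotides and 1 match. The median over all windows was 6 CpG. Another Mest window (chr6:30733256-30733505) has 7 CpG and 0 matches. Over the 15 member windows the number of CpG ran from 0 in a Meg3 window to 40 in a Grb10 window. A match describes these letters and shows no binding. Capitals mark the matches.
Mest: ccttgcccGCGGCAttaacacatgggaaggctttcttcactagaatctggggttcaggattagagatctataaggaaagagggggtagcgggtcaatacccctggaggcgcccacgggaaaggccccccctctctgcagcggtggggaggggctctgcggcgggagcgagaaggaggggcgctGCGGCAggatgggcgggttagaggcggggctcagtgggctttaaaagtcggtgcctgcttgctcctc
Plagl1: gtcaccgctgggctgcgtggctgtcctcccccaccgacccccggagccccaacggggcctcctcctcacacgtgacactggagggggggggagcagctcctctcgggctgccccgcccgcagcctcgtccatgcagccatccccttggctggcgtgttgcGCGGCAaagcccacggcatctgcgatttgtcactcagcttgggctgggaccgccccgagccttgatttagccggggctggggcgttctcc

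The members fell into a measurable and a near-silent set. Mest, a hydrolase-like protein of the endoplasmic reticulum, stood at 33.1 ± 9.39 CPM (SD, n = 3), above 83.4% of all entries, but its reads cannot be told apart from those of Copg2. Igf2r, the receptor that clears insulin-like growth factor 2, stood at 19.5 ± 0.427 CPM, above 76.5% of entries. Grb10, an adaptor that restrains insulin and IGF1 receptors, had 3.82 ± 2.17 CPM, and Cdkn1c, the cyclin-dependent kinase inhibitor p57, had 2.54 ± 1.20 CPM. The other 6 members held 20 reads together, 1.26% of the 1586 reads of all members, and Mest and Igf2r held 88.1%. Beside the 1 member of 10 at 0 reads and the 5 with 1 to 29 reads, 31.1% of all entries had 0 reads and 18.1% had 1 to 29.

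**Figure D1:**
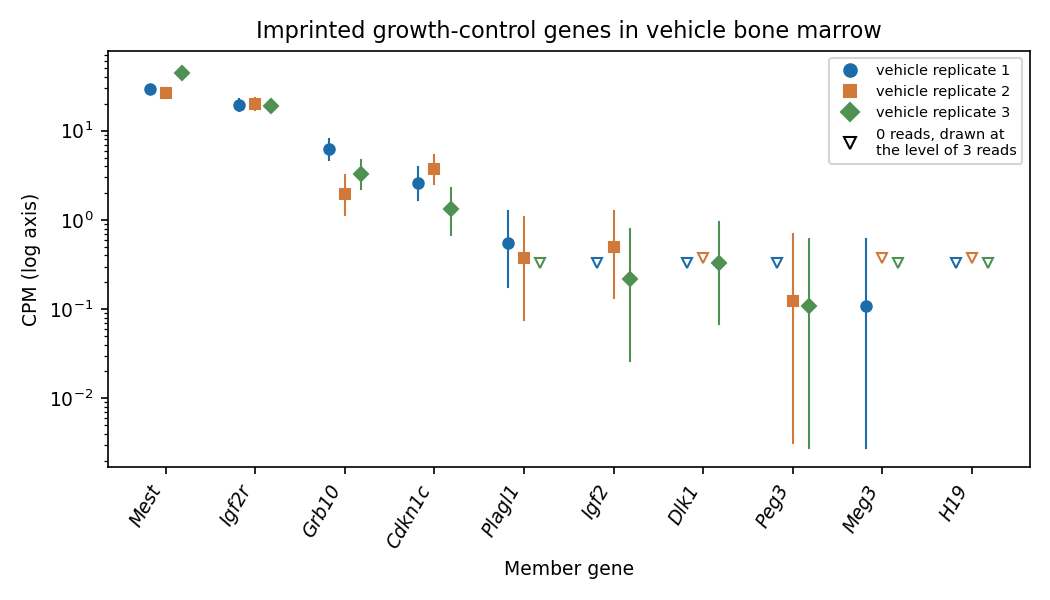
Level of each member in each vehicle library in CPM on a log axis, with exact 95% Clopper-Pearson intervals as vertical lines. Mest and Igf2r lie above 19 CPM in each library, Grb10 and Cdkn1c between 1.31 and 6.22 CPM, and the other members near or below the level that 3 reads give.

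In the order of mean levels, Mest came before Igf2r, followed by Grb10, Cdkn1c, Plagl1, Igf2, Dlk1, Peg3, Meg3 and H19. Of the 9 neighbouring pairs in that order, 3 did not overlap over the 3 libraries: Mest and Igf2r, Igf2r and Grb10, and Cdkn1c and Plagl1. The Mest entry was 1.70-fold above Igf2r, a value that may hold reads of Copg2, so the first place is not established for Mest itself. Igf2r was 5.10-fold above Grb10. The remaining 6 pairs overlapped, so the order within Grb10 and Cdkn1c, and within the near-silent members, is not beyond the spread. With 3 libraries the exact two-sided sign-flip permutation cannot give a p below 0.25.

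H19 is a noncoding RNA of fetal tissues on chromosome 7 (GRCm38, 142575529 to 142578143), and none of its reads was counted among 26410388. Its exact 95% Poisson interval over the 3 libraries therefore runs from 0 to 0.140 CPM (3.69 reads), above the fixed floor of 0.114 CPM. Its neighbour Igf2, the fetal growth factor (chromosome 7, 142650766 to 142666816), had 0, 4 and 2 reads in replicates 1, 2 and 3. Its pooled level was 0.227 CPM, with an exact 95% Poisson interval of 0.0834 to 0.494 CPM. The 2 genes share an enhancer region and are controlled by the same methylated imprint, and both were close to the counting limit here. No other entry of the files has an exon in the last 500 annotated bases of either gene. The annotated gene Gm49394, which has no entry, shares 3596 exon bases with Igf2 on the same strand, from 142650769.

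The receptors of this system were far above its imprinted ligand. Igf2r (chromosome 17, 12682406 to 12769664) had 178, 162 and 175 reads, and in CPM the libraries lay within a 1.04-fold range. Its reads were 85.8 times those of Igf2 (exact 95% interval 39.2 to 235, from 515 and 6 reads). Without replicate 2, which held 4 of the 6 Igf2 reads, the ratio was 177 (48.5 to 1463), and without replicate 1 it was 56.2 (25.5 to 154). Igf1, the postnatal ligand, had 27.5, 22.5 and 18.3 CPM, and its reads were 100 times those of Igf2 (45.8 to 274), or 210 times (57.6 to 1736) without replicate 2 and 58.2 times (26.5 to 160) without replicate 1. Igf1r, the signalling receptor, had 160, 131 and 152 CPM, 7.56 ± 0.903 times the reads of Igf2r (SD, n = 3). M6pr, the other mannose 6-phosphate receptor, had 31.0, 28.6 and 21.7 CPM. Ins2 had 0 reads in all libraries.

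Genes that transmit or bind IGF signals were mostly above the read minimum of 30. Of 24 genes of IGF and insulin signalling, 19 had at least 30 reads and 15 of these differed between libraries, 13 highest in replicate 1 and 2 in replicate 2. Over all tested genes 56.5% differed, and 31.2% differed with replicate 1 highest, where the median gene lay 0.15 log2 units higher on this scaling. The most abundant was Grb2, an adaptor to RAS, at 168 ± 23.0 CPM (SD, n = 3). The IGF binding and transport genes were sparser: of 16, 7 were tested and 4 differed. Among them Igfbp4 had 105, 79.2 and 88.5 CPM, while Igfbp5 had 275, 546 and 286 reads and was highest in replicate 2 (adjusted p = 1.06e-35, exact binomial test as described below). Igf2bp1, which binds Igf2 RNA in the embryo, had 1 read in total, and Igfbp1, Igfbp2 and Stc2 had 0.

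**Figure D2:**
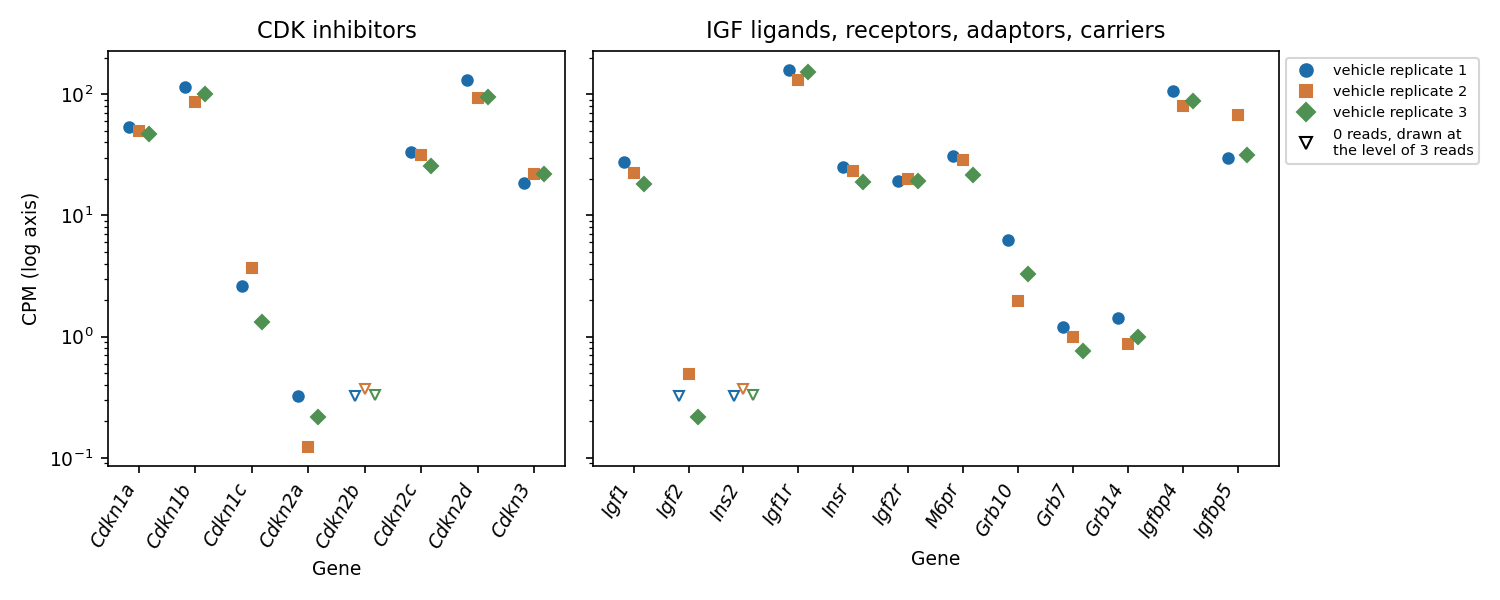
CPM on a log axis in each vehicle library for cyclin-dependent kinase inhibitors and for genes of the IGF system. Cdkn1c lies more than 10-fold below Cdkn1a and Cdkn1b in each library, and Igf2 and Ins2 lie at or under 0.494 CPM while Igf1, Igf1r and Igf2r lie above 18 CPM.

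For each gene with at least 30 reads, an exact binomial test (two-sided) set every library in turn against the remaining 2, with Benjamini-Hochberg adjustment over 11833 genes. Of the 4 members tested, 3 differed: Mest, Grb10 and Cdkn1c. Among all genes tested 56.5% differed, so a count of 3 of 4 sets the members in no particular position. Each of the 3 was highest in a different library. Mest was highest in replicate 3, Grb10 in replicate 1 and Cdkn1c in replicate 2. Of all 11833 tested genes, 10.5%, 31.2% and 14.8% differed with their highest level in these libraries. Mest and Grb10 were lowest in replicate 2 (21.4% of all tested genes differed and were lowest there) and Cdkn1c in replicate 3 (26.2%). None was lowest in replicate 1 (8.82%), although Mest was with 2 other scalings. The median coefficient of variation (CV) was 37.7% over the 4 tested members and 17.1% over all tested genes. These medians are not matched for depth. Counting noise alone gives a CV of 17.1% for Grb10 and 21.3% for Cdkn1c, against 5.83% for Mest and 7.63% for Igf2r. Scaled by library totals, replicate 1 had a median log2 difference of 0.15 from the others over genes, and of 0.01 with trimmed-mean (TMM) scaling. The highest library of each of the 4 tested members was the same under all 6 scalings tried.

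**Figure D3:**
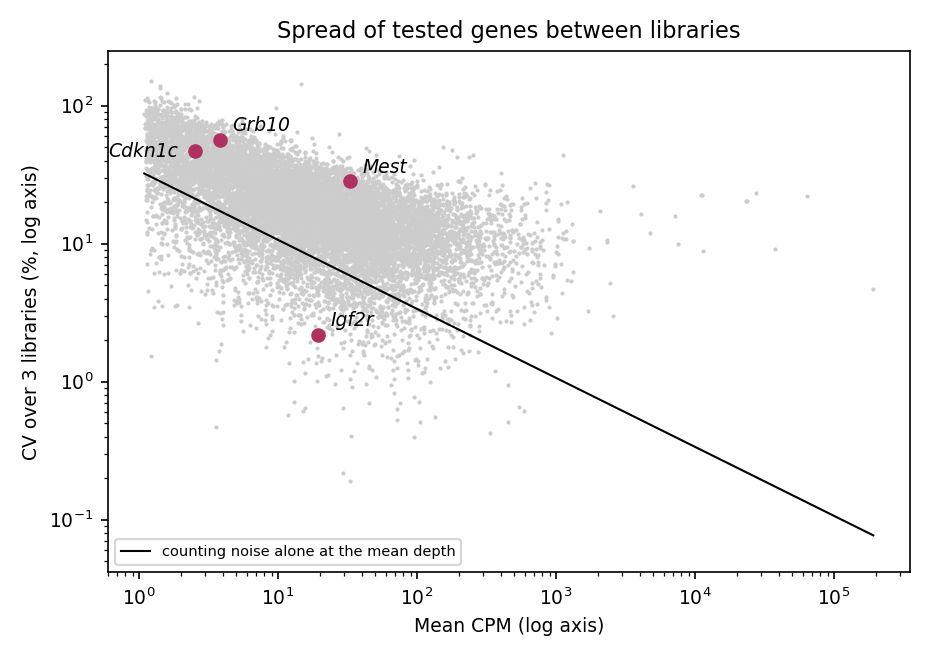
CV over the 3 libraries against mean CPM, scaled by library totals, for the 11833 tested genes, both on log axes, with the 4 tested members marked and a line for counting noise alone. Igf2r, at a CV of 2.19%, lies under the line, while Mest, Grb10 and Cdkn1c lie above it at 28.3%, 56.8% and 47.0%.

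Igf2r was the tested member with the lowest CV under all 6 scalings. On library totals its CV of 2.19% was below the 7.63% that counting noise alone gives at its depth, 1.19% of tested genes had a lower CV, and the test did not call it (adjusted p = 1, exact binomial test). With the other scalings its CV was 5.50% to 6.26%, and 9.87% to 12.5% of tested genes were lower. On the TMM scale its levels were 18.2, 20.4 and 20.1 CPM, and it was not called there either (exact binomial test, adjusted p = 0.928), and its lowest library moved from replicate 3 to replicate 1. A p that misses the threshold does not show that the libraries were equal. Airn, the noncoding RNA that silences the paternal Igf2r copy in the embryo, is transcribed from the opposite strand (chromosome 17, 12741311 to 12860136). It had 4, 17 and 10 reads, and Airn and Igf2r share 0 annotated exon bases. Airn differed between libraries (adjusted p = 0.0322, exact binomial test), highest in replicate 2.

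Mest (chromosome 6, 30723547 to 30748465, plus strand) had 266, 215 and 401 reads, with 26.5 CPM in replicate 2 and 43.9 CPM in replicate 3. Replicate 3 stood above the other libraries, 1.65-fold over the lowest (adjusted p = 1.23e-09, exact binomial test). Without replicate 3 the remaining libraries did not pass the test (exact binomial test, adjusted p = 0.475), so the call rests on replicate 3. Since the highest library was left out, this does not show that the others were equal. The summed neutrophil markers were 89029, 68835 and 91314 CPM, with S100a9 giving 45.4% of their reads. Of these 12 markers, 6 differed with replicate 3 highest and 6 with replicate 1 highest, against 10.5% and 31.2% of all tested genes. The summed monocyte and macrophage markers (9 of 9 with reads) were 1097, 1066 and 1226 CPM, with Ly6c2 giving 43.4% of their reads. Of the 8 tested, 3 differed with replicate 3 highest, 2 with replicate 1 and 1 with replicate 2. Over all tested genes these shares were 10.5%, 31.2% and 14.8%. Erythroid and endothelial markers were in sum also highest in replicate 3, though 8 of 11 erythroid markers were highest in replicate 2. Their part in the Mest level was not tested.

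The reads of Mest cannot be told apart from those of a neighbour. Copg2, a subunit of the coat of Golgi transport vesicles, runs toward Mest on the minus strand (chromosome 6, 30747554 to 30896794). The last exons of both genes share 912 bases, chr6:30747554-30748465, in the untranslated end of each, where poly(A)-primed reads fall. Copg2 had 296, 230 and 425 reads, more than Mest by 30, 15 and 24. Mest reads were 89.9%, 93.5% and 94.4% of Copg2 reads, and Copg2 also differed between libraries with replicate 3 highest (adjusted p = 4.78e-09, exact binomial test). Of 7480 other tested genes with a mean of at least 10 CPM, Copg2 was the 5th closest to Mest in its pattern over the 3 libraries, at a distance of 0.0508 log2 units.

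Pairs arranged like Mest and Copg2 are given as a description, with that pair counted among them. Of 240 pairs that end tail to tail on opposite strands with at least 500 shared exon bases, and at least 30 reads in each gene, 33 (13.8%) differed by no more than 15% of reads in each library. Of 760 tail-to-tail pairs without overlap and with ends within 5000 bases, 10 (1.32%) did. The strand setting of the counting is not given in the sources used here. Without Mest the members held 0.00289%, 0.00267% and 0.00244% of reads in place of 0.00579%, 0.00532% and 0.00683%. Mest was the only member with an exon of another entry in its last 500 annotated bases. Annotated genes without an entry, such as Gm49394 at the Igf2 end and Gm26906 at the Meg3 end, were not counted there.

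**Figure D4:**
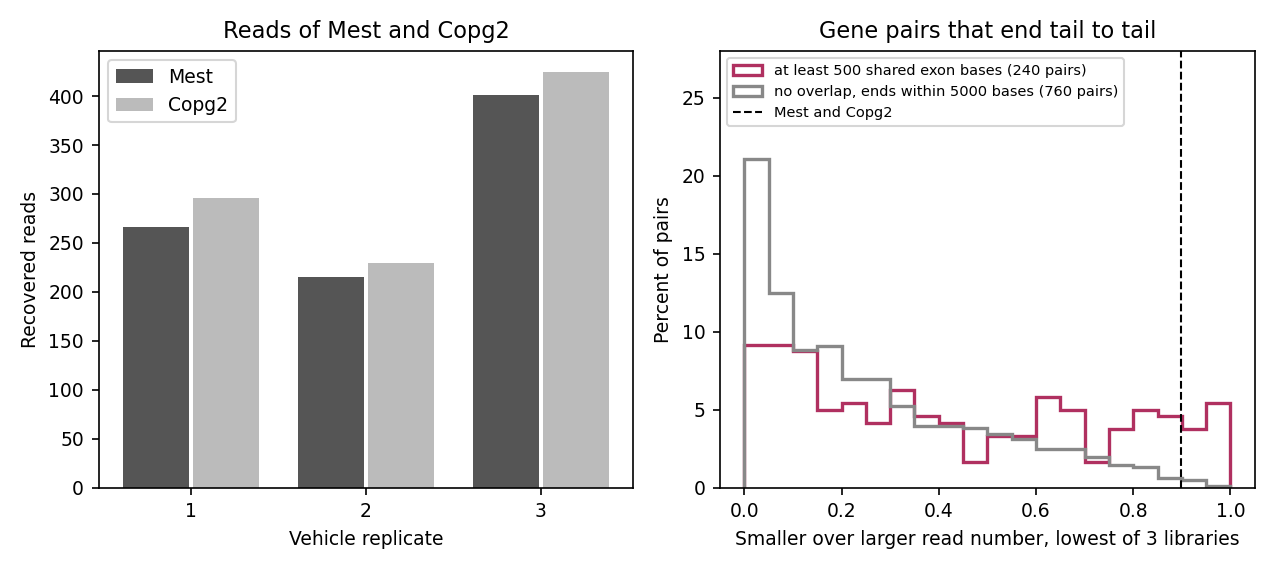
Left, recovered reads of Mest and Copg2 in each vehicle library, both highest in replicate 3 and lowest in replicate 2. Right, percent of tail-to-tail gene pairs by the smaller over the larger read number in the least similar of the 3 libraries, with Mest and Copg2 at 0.899 as a dashed line.

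Grb10 (chromosome 11, 11930508 to 12038683) had 57, 16 and 30 reads, which is 6.22, 1.97 and 3.28 CPM. Replicate 1 was 3.15-fold above replicate 2, and the exact 95% intervals of these libraries, 4.71 to 8.05 and 1.13 to 3.21 CPM, did not overlap (adjusted p = 0.000313, exact binomial test). On the TMM scale its levels were 5.83, 2.02 and 3.45 CPM. Without replicate 1 the other libraries did not pass the test (adjusted p = 0.206, exact binomial test). Leaving out the highest library makes a miss likely, so this does not show that the others were equal. Its relatives Grb7 and Grb14, adaptors of the same family, were lower, with 11, 8 and 7 reads and 13, 7 and 9 reads. The summed stroma and bone markers (14 of 15 with reads) were also highest in replicate 1, at 390, 357 and 270 CPM, but lowest in replicate 3. Of 13 tested, 11 differed, 7 of them highest in replicate 1, against 56.5% and 31.2% of all tested genes. Sp7, an osteoblast marker of that list, was at 0 reads. The summed megakaryocyte markers were highest in replicate 1 too, at 483, 397 and 399 CPM. Of 7 tested, 4 differed with replicate 1 highest, and 3 each with replicate 2 and replicate 3 lowest. Over all tested genes these shares were 31.2%, 21.4% and 26.2%. The part of these cell types in the Grb10 level was not tested.

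Neighbours of Grb10 with at least 30 reads differed as well, with replicate 1 highest as for Grb10. Ddc, which makes dopamine and is imprinted with Grb10 in the heart, had 36, 16 and 14 reads. The ATPase gene Fignl1 had 217, 164 and 136 reads, and Ikzf1, the lymphoid transcription factor Ikaros, had 313, 280 and 249 CPM. All 3 passed the test (adjusted p = 0.00788, 0.000596 and 3.87e-11, exact binomial test), with replicate 1 highest and replicate 3 lowest. Over all tested genes 56.5% differed, and 31.2% differed with replicate 1 highest. Grb10 was lowest in replicate 2, but its replicates 2 and 3 were not told apart (adjusted p = 0.206 without replicate 1, exact binomial test). For Ddc the exact 95% intervals of replicates 2 and 3, 1.13 to 3.21 and 0.838 to 2.57 CPM, overlapped. Cobl had 0, 0 and 4 reads, and Zpbp, a sperm protein gene, had 0.

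Cdkn1c (chromosome 7, 143458339 to 143461050), which holds stem cells in quiescence, had 24, 30 and 12 reads, which is 2.62, 3.70 and 1.31 CPM. Replicate 2 was 2.82-fold above replicate 3, and their exact intervals, 2.50 to 5.28 and 0.679 to 2.29 CPM, did not overlap. Scaled by totals the exact binomial test called the difference (adjusted p = 0.0252). It did not pass with TMM scaling (0.0566) or median-of-ratios scaling (0.0507), without replicate 2 (0.131) or without replicate 3 (0.345). Stroma and bone markers were lowest in replicate 3 in sum but highest in replicate 1, at 390, 357 and 270 CPM. Of 13 tested, 8 differed and were lowest in replicate 3, against 26.2% of all tested genes. Fat markers were highest in replicate 2 and lowest in replicate 3 in sum, at 103, 137 and 99.5 CPM. Of 5 tested, 4 differed with replicate 2 highest and 3 with replicate 3 lowest, against 14.8% and 26.2% of all tested genes. The stem cell markers (12 of 13 with reads) had 98.6, 101 and 93.0 CPM in sum, with Hoxb5 at 0 reads, and the endothelial markers had 63.5, 63.7 and 68.9 CPM, with none of 10 at 0. Their part in the Cdkn1c level was not tested.

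The other inhibitors of cyclin-dependent kinases were mostly far more abundant than the imprinted one. Cdkn1b (p27) had 114, 86.5 and 101 CPM and Cdkn1a (p21) 53.4, 50.1 and 46.8 CPM, and their pooled reads were 40.5 times (exact 95% interval 31.7 to 52.5) and 20.1 times (15.7 to 26.1) those of Cdkn1c. Cdkn2d (p19) had 131, 92.9 and 95.7 CPM, and Cdkn2c (p18) had 33.3, 31.5 and 25.6 CPM. The phosphatase gene Cdkn3 had 18.4, 22.1 and 21.9 CPM. Cdkn2a had 3, 1 and 2 reads and Cdkn2b had 0 in all libraries. Of the 5 tested, Cdkn1b, Cdkn2c and Cdkn2d differed between libraries, each highest in replicate 1, and Cdkn1a and Cdkn3 did not pass (adjusted p = 0.325 and 0.244, exact binomial test). Among all tested genes 56.5% differed, and 31.2% differed with replicate 1 highest.

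Plagl1, a zinc finger factor that activates other imprinted genes (chromosome 10, 13060504 to 13131694), had 5, 3 and 0 reads. Its pooled level was 0.303 CPM, with an exact 95% interval of 0.131 to 0.597 CPM. Its relative Plagl2, which is not imprinted, had 16.6, 15.4 and 14.7 CPM and was not called (adjusted p = 1, exact binomial test). Plag1, the third gene of this family, had 9, 31 and 0 reads, with most of them in replicate 2. Hymai, the noncoding RNA of the Plagl1 imprint, had 0 reads in all libraries.

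Peg3, a large zinc finger protein of the paternal copy (chromosome 7, 6703892 to 6730431), had 0, 1 and 1 reads. Its pooled level was 0.0757 CPM (exact 95% interval 0.00917 to 0.274). The 5 other entries of its domain, Usp29, Zim1, Zim2, Zim3 and Peg3os, had 0 reads in all libraries. Among proteins reported to act with Peg3, the ubiquitin ligase gene Siah1a had 17.1, 16.2 and 12.4 CPM and differed (adjusted p = 0.0403, exact binomial test).

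Dlk1, a membrane protein of fetal and stromal progenitors that resembles Notch ligands (chromosome 12, 109452823 to 109463336), had 0, 0 and 3 reads. Its pooled level was 0.114 CPM (exact 95% interval 0.0234 to 0.332). Meg3, the maternal noncoding RNA of the same domain (chromosome 12, 109541001 to 109571726), had 1, 0 and 0 reads, or 0.0379 CPM (0.000959 to 0.211). Rtl1, Rian, Dio3, Dio3os and Begain had 0 reads in all libraries, so nearly the whole domain lay at the counting limit. The receptors Notch1 and Notch2 were measured at 58.4 ± 5.24 and 39.1 ± 7.92 CPM (SD, n = 3), and Dlk2, the relative of Dlk1, had 2, 10 and 12 reads.

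Genes beyond these domains were often well above the counting limit. Next to H19 and Igf2, the leukocyte actin-binding protein gene Lsp1 had 436, 411 and 493 CPM, the cathepsin gene Ctsd 319, 263 and 288 CPM and the mitochondrial ribosome gene Mrpl23 22.5, 14.4 and 18.3 CPM. In the same neighbourhood Ascl2 had 11, 12 and 16 reads, Tnnt3 15, 16 and 18, Tnni2 14, 20 and 13 and Syt8 5, 1 and 6, while Nctc1, Igf2os and Th had 0. On the far sides of Dlk1 and Meg3, the phosphatase subunit gene Ppp2r5c had 132 ± 8.59 CPM (SD, n = 3), the tRNA synthetase gene Wars 10.6 ± 0.915 CPM and Wdr25 1.97 ± 0.122 CPM. Around Plagl1, Phactr2 had 68.4 ± 4.61 CPM, the splicing factor gene Sf3b5 57.4 ± 1.73 CPM and Ltv1 23.5 ± 4.19 CPM.

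The Cdkn1c domain was mixed. Kcnq1ot1, the long noncoding RNA of the paternal copy that silences the domain in cis, had 300, 324 and 267 CPM and differed between libraries (adjusted p = 9.20e-09, exact binomial test). Such a long unspliced RNA may be primed at more than 1 place, so its level is not set against that of Cdkn1c. Kcnq1 had 0, 2 and 0 reads, Slc22a18 5, 2 and 3, the placental growth gene Phlda2 5, 12 and 3 and Trpm5 0, 1 and 1. The histone chaperone gene Nap1l4 had 145 ± 1.82 CPM (SD, n = 3) and was not called (adjusted p = 1, exact binomial test). The tetraspanin gene Cd81 had 60.6 ± 4.21 CPM, Tssc4 34.9 ± 6.83, Cars 17.9 ± 1.73, Tspan32 15.9 ± 2.40, the sterol enzyme gene Dhcr7 4.16 ± 2.66 and Osbpl5 2.74 ± 0.748 CPM.

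Around Igf2r and Mest, silent and active genes alternated. Slc22a2, Mas1, Plg and Pnldc1 had 0 reads, and the cation transporter gene Slc22a3, imprinted in placenta, had 31, 41 and 46 reads. The mitochondrial ribosome gene Mrpl18 had 105 ± 8.25 CPM (SD, n = 3) and the chaperonin gene Tcp1 102 ± 13.9 CPM. Beside Mest, Klf14, Cpa4, Cpa5 and Tsga13 had 0 reads, and the centrosome gene Cep41 had 85, 33 and 72 reads (adjusted p = 0.000429, exact binomial test), lowest in replicate 2.

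**Figure D5:**
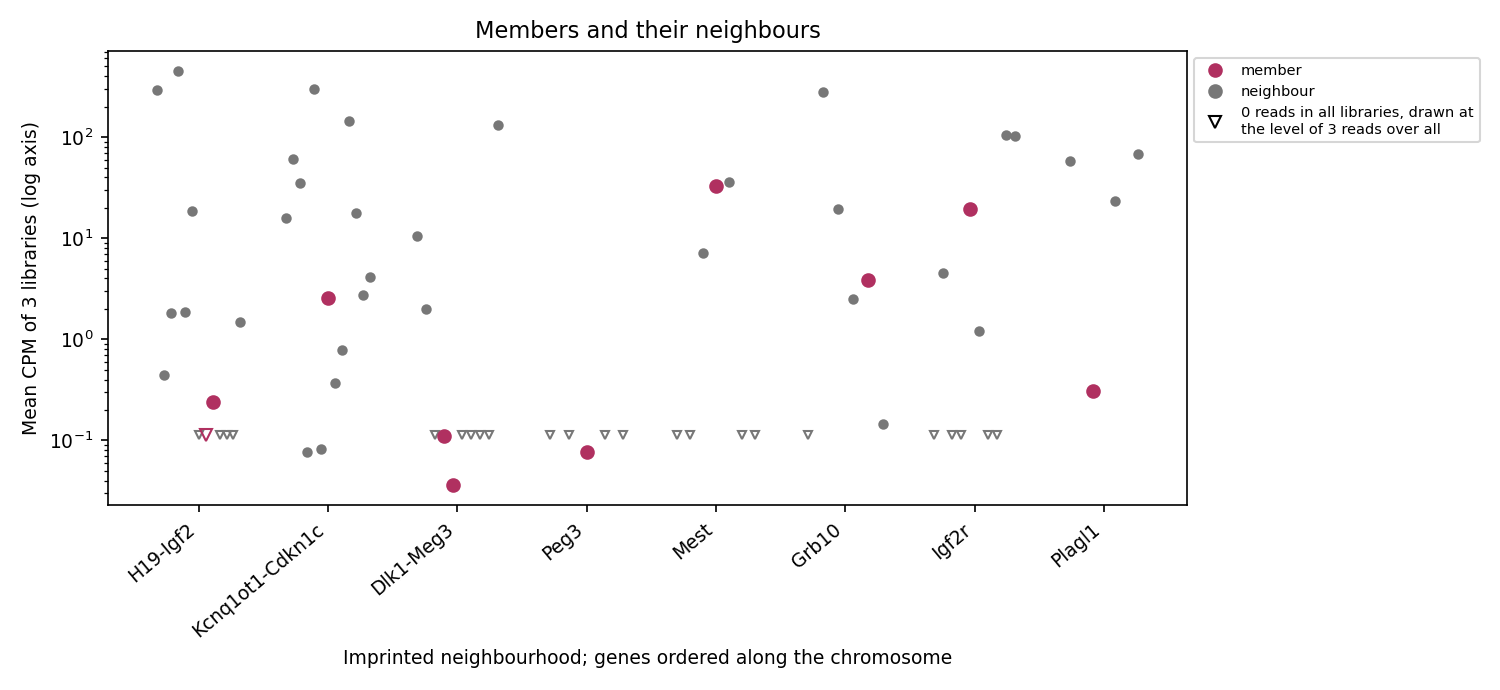
Mean CPM over 3 libraries, on a log axis, of the members and their neighbours in 8 imprinted regions, with genes in chromosome order. Genes without a matched position, such as Hymai and Peg3os, are not drawn. Triangles are genes at 0 reads. The members of the H19, Dlk1 and Peg3 regions lie at or under 0.237 CPM. Their neighbours reach 447 CPM by H19 and 132 CPM by Dlk1, and all those of Peg3 had 0 reads.

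Other imprinted genes spread over the same range. Of 54 listed, 53 had an entry, of which 12 had 0 reads, 13 had 1 to 29 reads and 28 were tested, with 17 differing between libraries (60.7%, against 56.5% of all tested genes). Some of them also belong to the neighbourhoods above. The most abundant were Gnas, which encodes the stimulatory G protein subunit, at 468 ± 52.0 CPM (SD, n = 3), and Kcnq1ot1. The share of entries with 0 reads was 22.6% in that list, against 31.1% of all entries.

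Genes that maintain imprints were expressed. Of 20 listed, 17 were tested and 12 differed, with 8 of these lowest in replicate 3, against 56.5% and 26.2% of all tested genes. The highest were the chromatin remodeller Atrx at 731 ± 82.2 CPM (SD, n = 3) and the cohesin gene Smc1a at 657 ± 24.8 CPM. Zfp57 had 0 reads in all libraries, and Zfp445, the other zinc finger protein known to protect imprints, had 763, 645 and 731 reads. Chosen after its values were seen, Ctcf, whose protein separates H19 and Igf2 enhancer contacts, had 367, 371 and 362 CPM, and Dnmt1, which copies methylation at replication, had 160, 141 and 123 CPM. Of 8 genes tied to fetal RNA programmes, 2 had 0 reads (Trim71 and Lin28b). The RNA-binding protein genes Khsrp and Elavl1 were the highest there, at 74.5 ± 4.42 and 56.0 ± 7.49 CPM.

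Markers of marrow cells outside the blood lineages ranged from low to moderate. Skeletal muscle markers had 14.7, 14.7 and 12.4 CPM in sum, with 3 of 10 at 0 (Myh4, Pvalb and Myf6) and the calcium pump gene Atp2a1 highest at 5.89 ± 0.854 CPM (SD, n = 3), before Mylpf at 4.74 ± 0.722 CPM. Fat markers had 103, 137 and 99.5 CPM, with Plin1 and Cidec at 0 and Lpl and Adipoq highest at 57.3 ± 7.20 and 20.3 ± 3.90 CPM. The stem cell markers were led by Cd34 at 40.7 ± 0.682 CPM, also an endothelial gene. Among stromal markers Cxcl12 had 128 ± 15.7 CPM and Col1a2 73.2 ± 20.8 CPM, and among endothelial markers Pecam1, also on platelets and leukocytes, had 28.7 ± 3.39 CPM and Eng 11.6 ± 1.32 CPM.

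The genes most like each differing member over the 3 libraries were found by the distance between mean-centred log2(CPM + 1) values, among tested genes with a mean of at least 10 CPM. For Mest these were Amer2, Pglyrp1 and Cox4i1, at 0.0330, 0.0412 and 0.0442. For Cdkn1c they were Pias2, Zkscan17 and Pde5a, at 0.0230, 0.0237 and 0.0585. For Grb10 they were Cep85, Traf3ip3 and 6330418K02Rik, at 0.0715, 0.0774 and 0.0924. With 3 libraries such a likeness has few degrees of freedom and is given as a description.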

How the data were processed

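Poly(A)-primed RNA libraries (Lexogen QuantSeq, from 500 ng of Trizol RNA, per the labels' protocols) of 3 vehicle samples were analysed. The authors deposited 1 log2 value per gene symbol and library, read from the values as log2(x + 1). Bowtie2, bedtools and mm10 are named in the submitters' processing notes. For versions, annotation, strand setting and normalization, nothing is stated in the labels. Whole reads were recovered from the deposited values (100% of values within a tolerance of 1e-06), and the tests ran on these reads, since the design had assumed counts. The exact binomial test compared each library with the other 2, the smallest p was multiplied by 3, and Benjamini-Hochberg adjustment at 0.05 covered all genes with at least 30 reads. It was also run on simulated counts with counting noise only, which cannot show how it behaves at the spread of these libraries. The tools were Python 3.11.15 and scipy 1.17.1.

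The members and gene lists were chosen with earlier results of these data known. Named genes are the 10 members, the 2 most abundant genes of each list, the neighbours, the kinase inhibitors and the 3 genes most like each differing member. Other list genes that are named (such as Igf1, Igf1r, M6pr, Ins2, Grb7, Grb14, Plag1, Dlk2, Igf2bp1, Zfp57, Zfp445 and genes at 0) were chosen after their values were seen. Some genes that this rule names are not reported here. The comparison of tail-to-tail gene pairs was also added then. Of 23238 symbols, 22197 matched GENCODE M21 (GRCm38, the assembly of mm10). Of lists used, that of B cell markers (521 to 630 CPM in sum, 8 of 8 with reads, led by Ebf1 and Cd79b) is given here only. Megakaryocyte markers (397 to 483 CPM, 7 of 7, led by Pf4 and Gp1bb) are also given beside Grb10. Alternatives covered scaling, read minimum, test, pseudocount, near-identical entries and leaving out each library.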

Additional observations from a re-analysis of the deposited data

How the results depend on the processing

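Depth limits the 6 near-silent members to intervals on few reads, and 3 libraries of 1 group allow no test of treatment. The count of members that differed was 3 of 4 tested, 2 with TMM or median-of-ratios scaling, where Cdkn1c was lost, and 3 with the authors' scaling, the other totals, the other read minimums, the chi-square test and without near-identical entries. Leaving out a library gave 1 to 2, with 1 without replicate 3, where Grb10 alone was called. Grb10 was called in every alternative other than without replicate 1, and Mest in every one other than without replicate 3. Over all genes 6687 of 11833 differed, against 3866, 4392 and 4320 without replicates 1, 2 and 3, the fewer libraries giving less power. The number of members at or above 1 CPM was 4 under every scaling and left-out library. The number of neighbouring pairs in the order that did not overlap was 3 under every scaling and 3 to 4 with a library left out. The summed level of 0.00598% of reads became 0.00267% without Mest, which was added after seeing the values. With a pseudocount of 0.1 in place of 1, the log2 SD of 5 near-silent members rose over 1.5 times, to between 0.61 and 1.44. No paired analysis was made, since only the vehicle group was analysed.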
